A study of Homo sapiens with 18 samples.

Results

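The comparison described here is between vehicle-treated lymphoma cells at 8 h and at 4 h, 3 libraries each, which makes 6 of the 18 libraries of the study. The libraries were chosen by their labels alone, as those of HAIR-M cells given DMSO for 4 h or 8 h. Every gene that passed a filter on low counts was tested. HAIR-M cells are an established human line of B cell lymphoma, given the class MZL, for marginal zone lymphoma, in the labels. DMSO is the solvent in which the drug of the study was dissolved. The other groups are DMSO at 12 h and 5 nM copanlisib at 4, 8 and 12 h, a drug that blocks PI3K, the kinases that make phosphoinositide signals, again with 3 libraries each. All groups share the cell line and a medium with 10% fetal bovine serum, antibiotics and L-glutamine, and no untreated library from before the addition of DMSO is used here. So a gene that differs between the 2 times may have moved away from, or back to, its level before treatment, and these libraries cannot tell these apart. Whether the 3 libraries of a group stem from separate cultures is not stated in the labels, and p-values therefore measure only the spread between libraries, which may be technical.

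Several transcript programmes of B cells are known to react within hours when cells are handled, fed or diluted. NF-kB factors switch on survival genes, cytokines and their own inhibitors. Immediate early genes follow ERK and serum signals and are shut off by short-lived mRNA. The transcription factor ATF4 raises amino acid transporters when amino acids or translation are disturbed, and type I interferon genes follow STAT factors. These facts are given as background and not as a cause of the changes below.

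The 6 libraries held between 13587017 and 21583576 reads on genes, and 9.07% to 9.50% of these came from the mitochondrial genome. Depth and the shares of unmapped, multiply mapped, unassigned, ambiguous and mitochondrial reads gave p of 0.2 or more between the times in an exact two-sided permutation test, in which 3 libraries against 3 cannot go below 0.1. B cell markers were present: MS4A1 lay between 214 and 232 CPM, which are read counts scaled to a common library size, and CD79A between 352 and 379 CPM. The protocol text speaks of retinas, but 8 of 19 retina markers were at 0 in all 6 libraries, only NRL and PDE6B reached 1 CPM, and the 19 together summed to 8.75 to 10.8 CPM. CD3D, which defines T cells, and HBB were at 0 in all 6 libraries, and the 11 erythroid and platelet markers summed to at most 0.445 CPM. The 15 myeloid markers gave 54.7 to 58.5 CPM at 4 h and 55.6 to 62.6 CPM at 8 h. The 20 markers of T and NK cells together gave 88.2 to 98.2 CPM at 4 h and 89.4 to 95.8 CPM at 8 h, mostly from TRAC and TRBC2, with 4 of the 20 at 0 in all 6 libraries. The 15 stromal and epithelial markers summed to 113 to 117 CPM at 4 h and 124 to 134 CPM at 8 h, led by ACTA2, KRT18 and COL1A1, with 4 of the 15 at 0 in all 6 libraries. Their part in the results was not tested. In bulk libraries such as these, a lower share of cells in some state and less RNA per cell cannot be told apart.

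Between 4 h and 8 h 4810 of 16122 genes tested (29.8%) changed in DMSO cells by edgeR's quasi-likelihood test at an adjusted p under 0.05, 2236 of them (13.9%) higher and 2574 (16%) lower at 8 h. Most changes were small: 131 genes (0.813%) were at least 2-fold higher and 134 (0.831%) at least 2-fold lower. The median log2 fold change over all genes was 0.00, and the CPM of the 3 libraries at 4 h and the 3 at 8 h did not overlap in 7338 genes (45.5%). Among the 12 protein-coding genes that fell most by the naming rule were CHAC1, MFSD2A, NR4A1, KDM6B and NFKBIA. The 12 that rose most include the interferon genes CMPK2, IFIT1 and SAMD9L and the chaperone HSPA4L.

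CHAC1 (chr15:40952962-40956519, GENCODE 29 on GRCh38), which encodes an enzyme that degrades glutathione and is a known ATF4 target, fell most among protein-coding genes whose mean log2 CPM was 3 or higher. It stood at 20.4, 18.3 and 18.5 CPM in the libraries at 4 h and at 5.92, 6.12 and 6.25 CPM at 8 h. The 2 times lay far apart, with a log2 fold change of -1.64 (SE 0.10, edgeR adjusted p = 3.9e-12), and at 12 h the libraries had returned part of the way, to 12.0, 12.0 and 12.1 CPM. MFSD2A, a transporter of lysophospholipids, went from 48.2, 48.8 and 49.4 CPM to 20, 18.3 and 18.5 CPM. KDM6B, a histone H3 lysine 27 demethylase, went from 118, 131 and 123 CPM to 53, 56.4 and 55.9 CPM. MYADM, a membrane protein first found in myeloid cells, dropped from 128, 131 and 134 CPM to 61.5, 58.2 and 61.8 CPM. In each of these the libraries of 1 time agreed closely and the groups did not overlap. The growth factor PDGFA (log2 fold change -1.16), the peptide hormone ADM2 (-1.11), the orphan receptor NR6A1 (-1.10) and the dual-specificity phosphatase DUSP14 (-1.03) complete this group together with genes described in their pathways below.

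**Figure D1:**
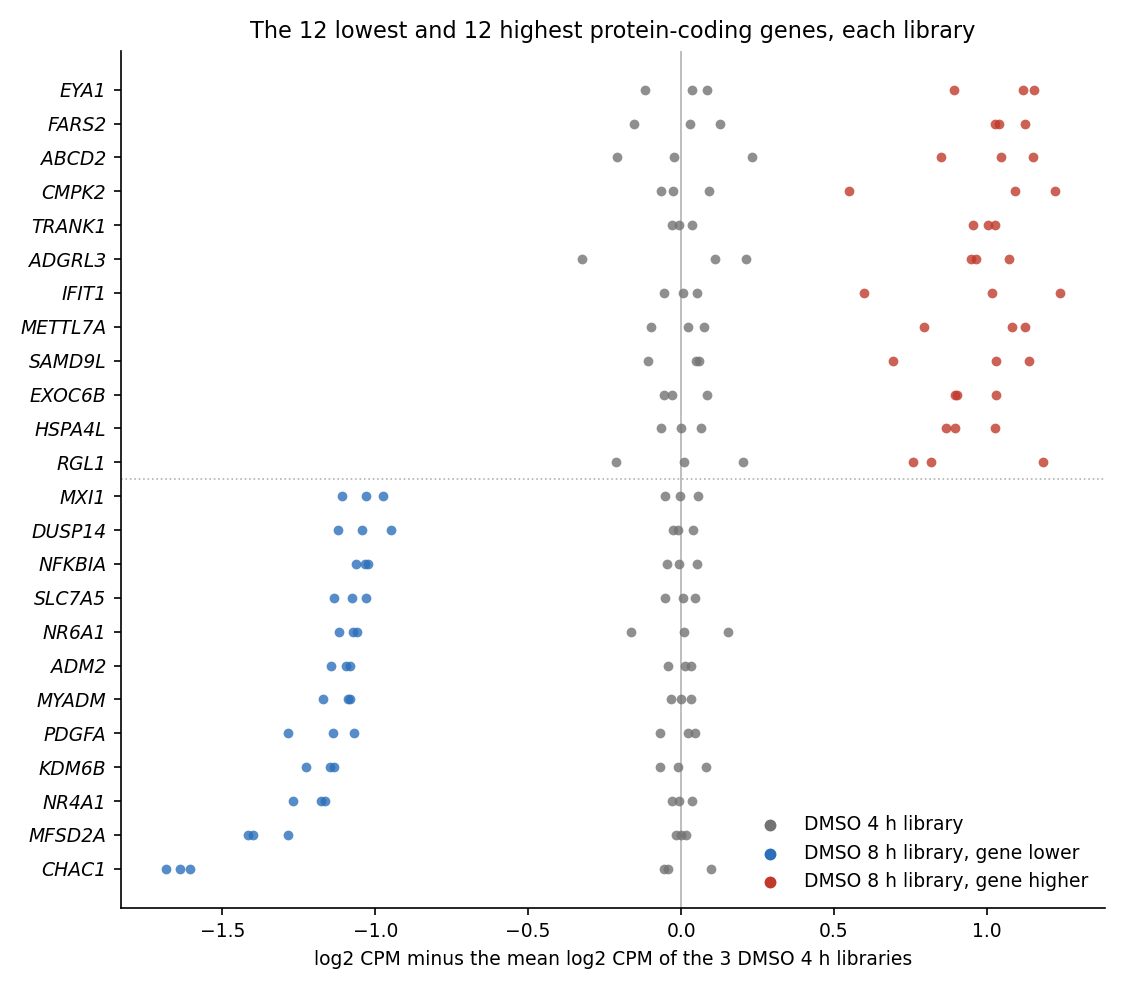
Each point is 1 library, placed by its log2 CPM minus the mean log2 CPM of the 3 DMSO 4 h libraries; grey points are 4 h and coloured points 8 h, for the 12 lowest and 12 highest protein-coding genes by the naming rule. CHAC1 lies lowest (log2 fold change -1.64) and EYA1 highest (1.05), and no 8 h library of these 24 genes overlaps the 4 h libraries.

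EYA1, a transcriptional coactivator and tyrosine phosphatase, had the largest rise by the same rule, from 4.37, 3.93 and 4.52 CPM to 7.92, 9.26 and 9.49 CPM, with a log2 fold change of 1.05 (SE 0.14, edgeR adjusted p = 3.8e-06). FARS2, the mitochondrial phenylalanyl-tRNA synthetase, rose from 5.11, 5.80 and 6.21 CPM to 11.6, 11.7 and 12.4 CPM. TRANK1 rose from 13, 13.4 and 12.8 CPM to 26.2, 25.3 and 26.6 CPM. The spread among the 3 libraries was narrow for these genes. ABCD2, a peroxisomal fatty acid transporter (log2 fold change 1.02), the adhesion receptor ADGRL3 (0.99), METTL7A (0.98), the exocyst subunit EXOC6B (0.94) and RGL1 (0.92), a guanine nucleotide exchange factor for Ral, also rose.

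**Figure D2:**
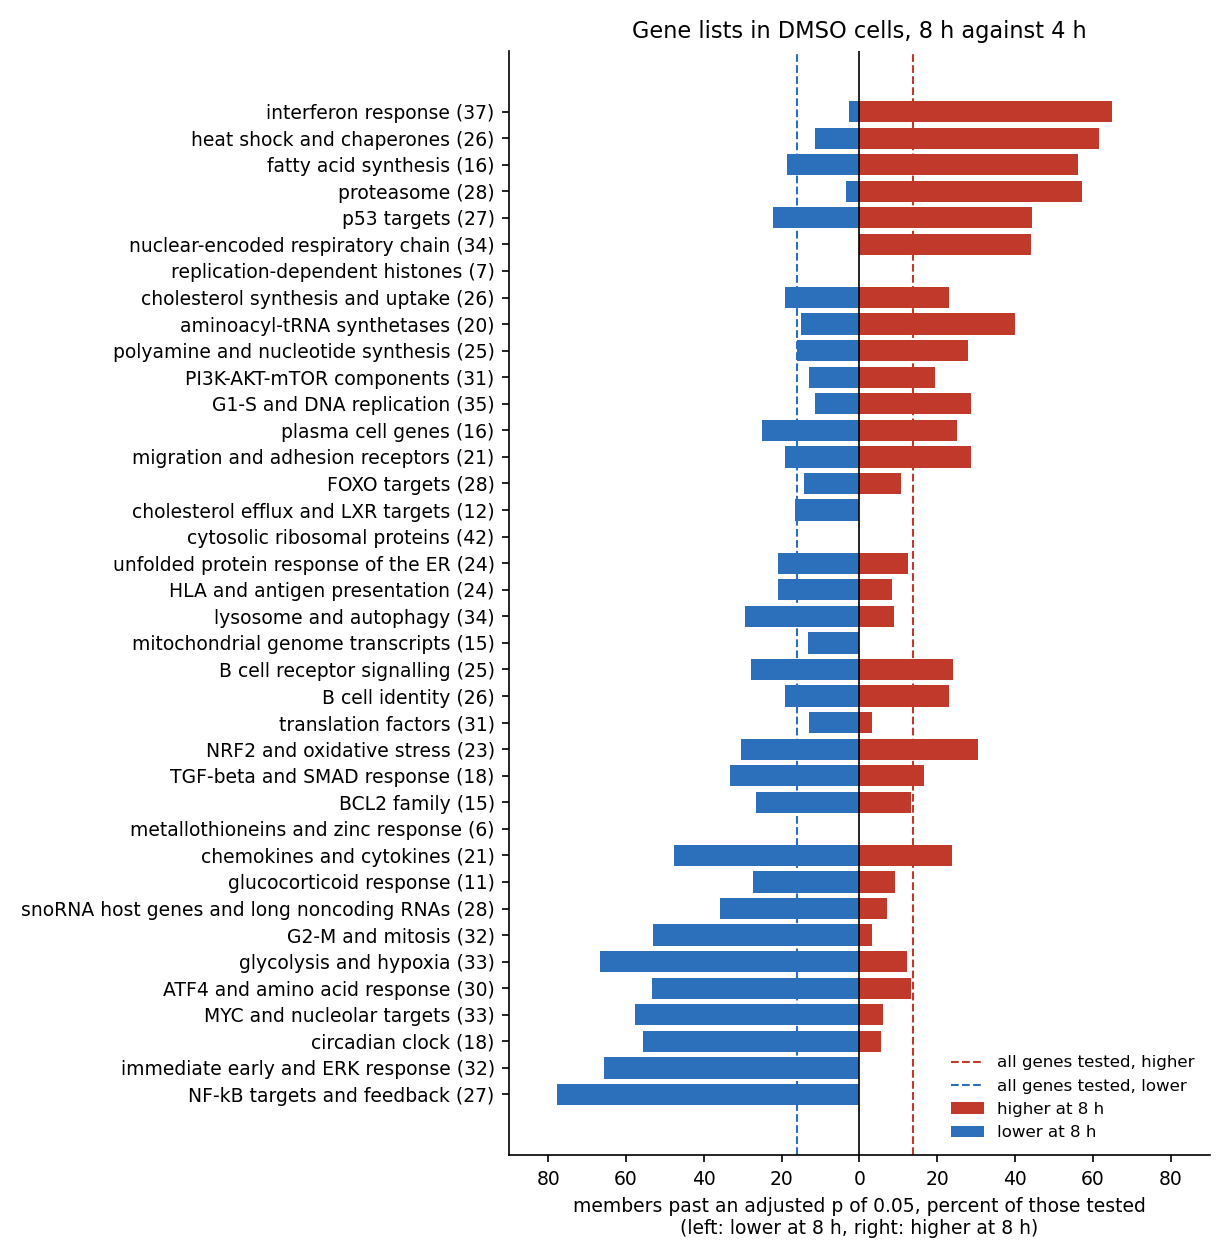
Bars give, for each gene list (number of members tested in brackets), the percent of tested members past an adjusted p of 0.05 that were lower (left, blue) or higher (right, red) at 8 h, ordered by the list's median log2 fold change; dashed lines mark the same over all genes (16% lower, 13.9% higher). NF-kB and immediate early genes had no member higher, while the interferon list had 24 of 37 higher.

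The lists below were chosen with earlier results of these data known, so their shares are descriptions and not independent tests. Of 27 NF-kB genes tested 21 passed the threshold (77.8% beside 29.8% of all genes), all of them lower at 8 h. The list's median log2 fold change was -0.51 against 0.00 over all genes. In the fits of all 18 libraries none rose by edgeR, DESeq2 or limma-voom, and 1 was higher at an unadjusted p under 0.05. In edgeR fits of only the 6 or 9 DMSO libraries, without copanlisib 4 h replicates 1 and 2, or without DMSO 4 h replicate 1, 1 member was called higher. Inhibitors, subunits and targets were among the fallen. Among the inhibitors that NF-kB induces against itself, NFKBIA (IkB-alpha) stood at 607, 567 and 582 CPM at 4 h and at 288, 280 and 286 CPM at 8 h, a log2 fold change of -1.04 (SE 0.04, edgeR adjusted p = 9.3e-15). NFKBIE (-0.55), NFKBIZ (-0.45) and TNFAIP3 (-0.59), the ubiquitin-editing enzyme A20, fell as well. All of the subunits did, REL most (-0.96) and then RELB (-0.58), NFKB2 (-0.53), NFKB1 (-0.49) and RELA (-0.47). REL went from 66.5, 66.0 and 57.6 CPM to 31.9, 37.1 and 28.6 CPM with no overlap. Of the survival and adhesion targets, BIRC3 (-0.91), TRAF1 (-0.91), ICAM1 (-0.73) and CD83 (-0.73) fell, while SOD2 (0.15), BCL3 (-0.05) and TNIP1 (-0.08) did not pass the test. From 8 h to 12 h NFKBIA rose again, to 431, 426 and 445 CPM (log2 fold change 0.61, edgeR adjusted p = 8.5e-11). In that comparison, which shares the 8 h libraries, 4151 genes changed (25.7%), 13.4% higher and 12.4% lower, and 12 NF-kB members were higher and 1 lower.

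Promoter sequences of RefSeq (GRCh38.p14, 250 bases before to 50 after the start) were found for 24 of the 27 tested NF-kB genes. Either GGGACTTTC or GGGAATTTC, 2 forms of the kB site, occurred on either strand in 6 of the 18 fallen members with a promoter (NFKBIA, NFKB1, NFKB2, REL, TNFAIP3 and NFKBIZ) and in 7 of all 24, against 0.850% of 27305 genes. A match is a description of letters and not of binding. The 250 bases before the start of NFKBIA (chr14:35404750-35404999, minus strand) and NFKBIZ (chr3:101827740-101827989, plus strand) show where the letters lie in a feedback inhibitor and in a nuclear cofactor of the family, with the match in capitals, in NFKBIA on the opposite strand.
NFKBIA: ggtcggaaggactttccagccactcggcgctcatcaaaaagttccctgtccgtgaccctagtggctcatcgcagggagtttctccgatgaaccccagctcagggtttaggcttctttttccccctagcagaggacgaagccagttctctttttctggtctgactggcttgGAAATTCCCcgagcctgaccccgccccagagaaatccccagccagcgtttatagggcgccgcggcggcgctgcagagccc
NFKBIZ: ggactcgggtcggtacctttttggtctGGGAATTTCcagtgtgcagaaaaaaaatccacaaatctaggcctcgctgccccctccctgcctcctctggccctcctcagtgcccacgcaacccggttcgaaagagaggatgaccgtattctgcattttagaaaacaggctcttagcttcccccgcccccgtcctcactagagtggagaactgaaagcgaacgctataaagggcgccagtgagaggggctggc

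Several inflammatory cytokines fell, while the chemokine CXCL10 rose. Of 21 chemokines and cytokines tested, 10 fell and 5 rose, 71.4% beside 29.8% of all genes. CXCL8, the neutrophil chemokine interleukin 8, stood at 9.03, 9.43 and 8.06 CPM at 4 h and at 2.89, 2.60 and 3.38 CPM at 8 h (log2 fold change -1.59, SE 0.14, edgeR adjusted p = 4.5e-09). TNF fell from 41.4, 40.7 and 41.4 CPM to 21.8, 24.0 and 25.7 CPM, and by 12 h had gone back up to 38.7, 37.0 and 36.7 CPM. CCL4 (-1.23) and CCL3 (-0.51) fell as well, but both have near-identical copies in the genome, so their counts are uncertain. CXCL10, a ligand of the receptor CXCR3 on activated T cells, moved the other way, from 308, 299 and 297 CPM to 509, 514 and 487 CPM and then to 969, 904 and 982 CPM at 12 h. These 3 times did not overlap at any step. CXCR3 itself rose from 6.07, 6.25 and 6.53 CPM to 10.0, 9.87 and 9.85 CPM (log2 fold change 0.66).

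Immediate early genes showed the same one-sided pattern, with 21 of 32 lower (65.6% beside 29.8% of all genes) and a median of -0.42. None was higher by edgeR, DESeq2 or limma-voom, nor at an unadjusted p under 0.05. NR4A1, an orphan nuclear receptor induced by antigen receptor signals, fell most, from 60.4, 61.4 and 63.3 CPM to 27.3, 25.6 and 27.5 CPM (log2 fold change -1.20, SE 0.08, edgeR adjusted p = 1.5e-11). It stayed low at 12 h, with 23.2, 25.6 and 26.2 CPM. Its relatives NR4A3 (-0.72) and NR4A2 (-0.34) and the zinc finger factors EGR3 (-0.67), EGR2 (-0.49) and EGR1 (-0.42) fell less. Of the AP-1 subunits, FOSB (-1.03), FOSL1 (-0.91), FOSL2 (-0.89), JUNB (-0.69) and JUN (-0.64) fell. FOS, at 4.59, 4.74 and 4.95 CPM and then 3.31, 4.48 and 4.63 CPM, overlapped between the times and did not pass (-0.23, edgeR adjusted p = 0.26). ATF3, a stress-induced repressor, went from 36.0, 33.6 and 35.7 CPM to 18.2, 16.8 and 18.4 CPM. Of further members, the phosphatases DUSP1 (-0.82), DUSP2 (-0.85) and DUSP5 (-0.47) fell, but DUSP6 (0.10), DUSP4 (-0.14), SPRY2 (0.07), SPRED1 (-0.12) and ETV5 (-0.13) did not pass the test. The serum response element in the forms CCATATTA, CCATATAA or CCTTATTA was found in 2 of the 24 members with a promoter, EGR1 and SRF, which both fell, against 1.61% of all genes. The upstream bases of EGR1 (chr5:138465229-138465478, plus strand) are shown with the matched form CCATATTA in capitals. Other forms of the element were not searched.
EGR1: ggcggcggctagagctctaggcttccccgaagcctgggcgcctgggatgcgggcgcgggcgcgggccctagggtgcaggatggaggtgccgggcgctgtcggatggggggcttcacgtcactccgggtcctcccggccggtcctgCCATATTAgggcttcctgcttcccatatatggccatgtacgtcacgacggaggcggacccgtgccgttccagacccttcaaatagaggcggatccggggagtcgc

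Of 30 genes of the ATF4 and amino acid response 16 fell and 4 rose, 66.7% beside 29.8% of all genes, and the median was -0.23. ATF4 itself (-0.80), DDIT3 (CHOP, -1.0), CEBPB (-0.89), CEBPG (-0.71) and ATF5 (-0.45) were lower, as were the amino acid transporters SLC7A5 (-1.08), SLC1A5 (-0.91), SLC7A1 (-0.62), SLC3A2 (-0.61) and SLC7A11 (-0.37). SLC7A5, which imports leucine as a dimer with SLC3A2, stood at 265, 254 and 272 CPM at 4 h, at 125, 120 and 129 CPM at 8 h and at 110, 114 and 112 CPM at 12 h. SLC1A5, a glutamine transporter, went from 239, 246 and 253 CPM to 135, 127 and 131 CPM. Both were cleanly separated between 4 h and 8 h. The 4 that rose were PSAT1 (0.67), PSPH (0.48) and PHGDH (0.26), which together make serine, and ASNS (0.29), asparagine synthetase. ASNS went from 42.5, 45.4 and 48.2 CPM to 54.7, 55.3 and 56.3 CPM and was back at 41.0, 44.2 and 45.0 CPM by 12 h. DDIT4, SHMT2, MTHFD2 and PYCR1 were among the 10 members that did not pass. An amino acid response element in the form TTGCATCA or TGATGCAA lay in the promoters of 3 of 14 fallen members (CHAC1, SLC1A5 and CEBPG) in none of the 3 risen ones and in 5 of all 25 members with a promoter, against 1.08% of all genes. Of the 20 aminoacyl-tRNA synthetases, which charge tRNA with amino acids, 8 rose and 3 fell, 55% beside 29.8% of all genes. LARS1 (0.30) was among the risen, and CARS1 (-0.36) and TARS1 (-0.29) were among the fallen.

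Of 18 circadian clock genes tested 10 fell and 1, BHLHE41, rose, 61.1% beside 29.8% of all genes. The median was -0.27. By DESeq2 10 were lower and none was higher, so BHLHE41 lost its call there. PER2, a repressor of the clock, went from 25.8, 25.9 and 27.1 CPM to 12.7, 13.3 and 12.7 CPM, a log2 fold change of -1.03 (SE 0.08, edgeR adjusted p = 7.9e-10), and reached 15.8, 16.2 and 15.1 CPM at 12 h. PER1 fell from 73.7, 73.0 and 75.8 CPM to 42.9, 38.9 and 37.3 CPM and stood at 47.7, 54.3 and 53.2 CPM at 12 h. NR1D1 (REV-ERB alpha, -0.77), TEF (-0.73), CRY1 (-0.42), DBP (-0.37) and NR1D2 (-0.32) fell, and so did the casein kinases CSNK1D (-0.42) and CSNK1E (-0.23). CLOCK (-0.09) and BMAL1 (-0.07), which form the activating pair, did not pass the test. The E-box CACGTG, to which that pair is known to bind, was present in 4 of 9 fallen members with a promoter (PER1, NR1D2, TEF and BHLHE40), in the risen BHLHE41, in 6 of all 17 members with a promoter and in 8.77% of all genes. NR1D2 (chr3:23945871-23946120, plus strand) holds 2 of them before its start, shown in capitals.
NR1D2: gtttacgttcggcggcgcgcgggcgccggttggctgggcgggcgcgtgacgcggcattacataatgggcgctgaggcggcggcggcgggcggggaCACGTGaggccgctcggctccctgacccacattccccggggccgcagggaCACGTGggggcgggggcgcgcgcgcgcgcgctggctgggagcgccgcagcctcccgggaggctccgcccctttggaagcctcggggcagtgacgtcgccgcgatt
With 3 time points 4 h apart, a cycle cannot be told apart from a single decline.

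Of 33 genes of the list of MYC and nucleolar targets, many of which build ribosomes, 19 fell and 2 rose. These made up 63.6% beside 29.8% of all genes, and the list's median was -0.24. MYC went from 243, 231 and 230 CPM to 191, 177 and 190 CPM and then to 155, 151 and 163 CPM at 12 h, so that each time was lower than the one before (log2 fold change -0.34 from 4 h to 8 h, SE 0.04, edgeR adjusted p = 2.5e-06). NOP58, a core protein of box C/D small nucleolar ribonucleoproteins, fell most, from 273, 251 and 242 CPM to 163, 171 and 174 CPM. PPAN (-0.45), WDR43 (-0.43), the RNA polymerase I subunit POLR1B (-0.38), RRS1 (-0.38) and NIP7 (-0.37) followed, while the abundant nucleolar proteins NCL (-0.03), NPM1 (0.03) and FBL (-0.04) did not pass. CAD (0.35), which starts pyrimidine synthesis, and the transferrin receptor TFRC (0.30) were the members that rose. Of 42 cytosolic ribosomal protein genes none passed in either direction by edgeR, DESeq2 or limma-voom, none reached an unadjusted p under 0.05, and their median was 0.00. Other edgeR fits called a few: 2 were higher with GC content offsets, and 1 was higher in the fits of only the 6 or 9 DMSO libraries or without copanlisib 4 h replicates 1 and 2. Ribosomal protein genes have many processed copies, so their counts are uncertain.

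Glycolytic and hypoxia-linked genes were lower in 22 of 33 and higher in 4, 78.8% beside 29.8% of all genes, with a median of -0.22. NDRG1, a hypoxia- and stress-linked gene, went from 229, 244 and 235 CPM to 124, 111 and 119 CPM and on to 81.3, 76.3 and 78.8 CPM at 12 h. MXI1, which encodes an antagonist of MYC, went from 32.5, 31.2 and 30.1 CPM through 15.3, 15.9 and 14.5 CPM to 5.41, 5.83 and 5.46 CPM. Neither gene overlapped between any 2 times, and the 8 h to 4 h log2 fold changes were -1.0 and -1.03. BNIP3 (-0.78), a mitophagy receptor, ENO2 (-0.61), PFKFB4 (-0.60), P4HA1 (-0.58) and PFKP (-0.58) fell, and PDK1 (-0.48), LDHA (-0.33) and GAPDH (-0.12) fell less. The members that rose include EGLN1 (0.34) and EGLN3 (0.82), oxygen-sensing prolyl hydroxylases, ANKRD37 (0.40) and the glucose transporter SLC2A1 (0.28). EGLN3 stood at 6.66, 8.12 and 7.51 CPM at 4 h and at 15.8, 10.4 and 13.2 CPM at 8 h, with replicate 2 lowest at 8 h. Replicate 2 was also the lowest at 8 h for BNIP3, with 33.7, 26.3 and 32.1 CPM, and for the long noncoding RNA MIR210HG, with 9.83, 5.03 and 8.16 CPM. From 8 h to 12 h 27 of the 33 members fell and none rose by edgeR, DESeq2 or limma-voom, with 1 higher at an unadjusted p under 0.05.

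In the list of G2-M and mitosis, 17 of 32 fell and 1 (HMMR, 0.27) rose, 56.2% beside 29.8% of all genes. The median was -0.17. KIF23, a kinesin of the dividing cell's midzone, fell from 63.6, 59.8 and 56.4 CPM to 40.9, 41.2 and 43.4 CPM (log2 fold change -0.52). PLK1, a mitotic kinase, went from 120, 115 and 117 CPM to 88.6, 83.4 and 87.9 CPM, and AURKB from 62.4, 62.9 and 71.4 CPM to 50.5, 46.1 and 49.0 CPM. All 3 genes were without overlap. CCNB1 (-0.32), CDC20 (-0.25), MKI67 (-0.24) and CDK1 (-0.16) fell by less, and TOP2A (-0.03), FOXM1 (-0.07) and BUB1 (-0.08) did not pass. A CCAAT box was present in 21 of the 26 members with a promoter, 12 of the 13 fallen ones among them, against 39.7% of all genes. The cell cycle homology region TTTGAA lay in 15 of the 26, 7 of the 13 fallen ones and the risen HMMR among them, against 18.2%. In the G1-S list 10 of 35 rose and 4 fell, 40% beside 29.8% of all genes, with a median of 0.04. The helicase subunits MCM3 (0.30), MCM4 (0.31), MCM5 (0.25) and MCM6 (0.32), the clamp PCNA (0.26) and the polymerase POLA1 (0.45) were higher, while CDT1 (-0.34), CCND2 (-0.18), SLBP (-0.22) and RRM2 (-0.13) were lower. From 8 h to 12 h 32 of these 35 rose and 1 fell, with a median of 0.50, and in the mitotic list 18 rose and none fell by edgeR, DESeq2 or limma-voom or at an unadjusted p under 0.05. Whether the shares of cells in each phase shifted was not measured.

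**Figure D3:**
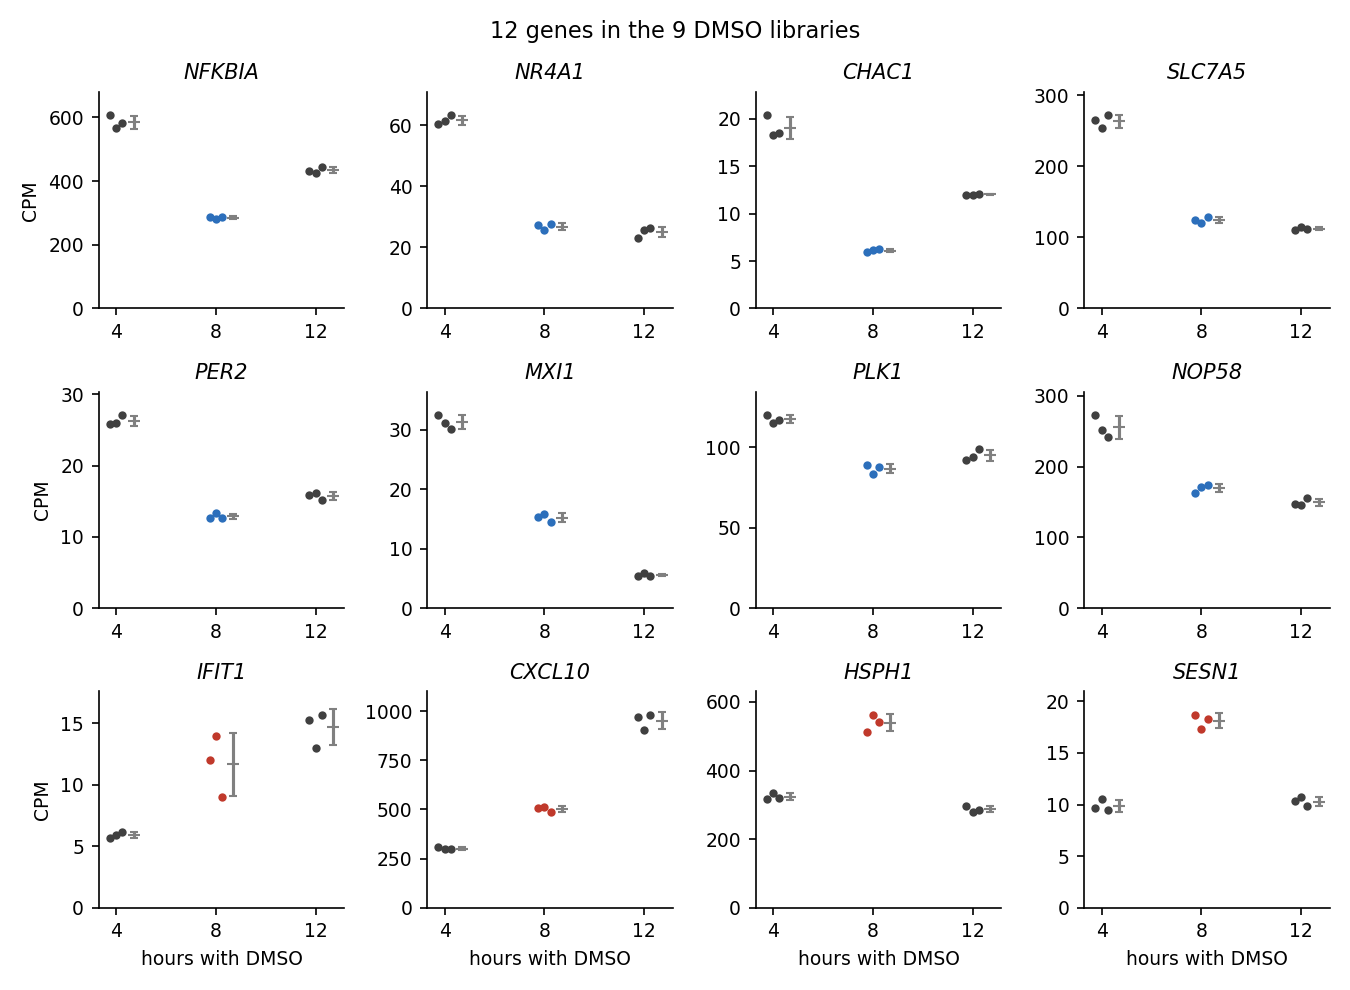
Points are the 3 DMSO libraries at each time (linear CPM, from 0), with the mean and SD beside them, for 12 genes discussed in the text; coloured points are the 8 h libraries. NFKBIA and CHAC1 fell at 8 h and were partly back at 12 h, MXI1 went on falling to 5.41 to 5.83 CPM, and HSPH1 and SESN1 were high at 8 h only among the 3 times.

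The interferon response was the list with the highest median, 0.32, and 24 of its 37 members rose while OAS3 (-0.13) fell. Members past the threshold made up 67.6% beside 29.8% of all genes. IFIT1, which binds foreign RNA caps, stood at 5.70, 5.95 and 6.15 CPM at 4 h and at 12.0, 14 and 8.97 CPM at 8 h (log2 fold change 0.98, SE 0.14, edgeR adjusted p = 8.8e-06). CMPK2, a nucleotide kinase next to RSAD2 in the genome, went from 5.84, 5.24 and 5.39 CPM to 11.7, 12.8 and 8.02 CPM. For both genes the 8 h libraries spread widely, with replicate 3 lowest, but none overlapped the 4 h libraries. SAMD9L, a translation repressor, went from 12.7, 12.6 and 11.3 CPM to 19.7, 26.8 and 24.9 CPM, where replicate 1 was lowest. RSAD2 (0.70), IFIT2 (0.67), the RNA sensor RIGI (0.64), TRIM22 (0.64), HERC6 (0.57) and OAS2 (0.49) rose, and the transcription factor STAT2 (0.39) with them. ISG15 (0.23), IFI6 (0.08), MX1 (0.10), OAS1 (-0.10) and IRF9 (0.09) did not pass. From 8 h to 12 h 20 of the 37 rose and 1 fell.

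GAAANNGAA, the core of the interferon-stimulated response element, was present in 19 of the 28 members that had a promoter in the table, among them 13 of the 19 that rose and the fallen OAS3, and in 9.86% of all genes. IFI44, which rose from 20.5, 24.4 and 22.6 CPM to 29.4, 30.4 and 29.3 CPM, carries it on the opposite strand 17 bases before its start (chr1:78649539-78649788, plus strand), in capitals here.
IFI44: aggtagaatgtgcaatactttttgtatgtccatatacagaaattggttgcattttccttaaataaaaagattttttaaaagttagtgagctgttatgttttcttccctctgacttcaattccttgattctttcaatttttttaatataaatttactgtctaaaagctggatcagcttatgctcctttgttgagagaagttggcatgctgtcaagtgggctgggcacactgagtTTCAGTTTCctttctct

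Of 26 heat shock genes and chaperones 16 rose and 3 fell, 73.1% beside 29.8% of all genes, with a median of 0.20. HSPA8, the constitutive HSP70, went from 1420, 1400 and 1380 CPM to 2110, 2300 and 2190 CPM (log2 fold change 0.65, SE 0.04, edgeR adjusted p = 1.9e-11). HSPH1, its nucleotide exchange factor, went from 317, 336 and 319 CPM to 513, 563 and 541 CPM, and HSPA4L, of the same family, from 36.4, 38.1 and 34.8 CPM to 66.4, 74.2 and 67.8 CPM. All 3 were clear of the 4 h libraries. AHSA1 (0.51), HSP90AA1 (0.33), DNAJA1 (0.32), FKBP4 (0.31) and the mitochondrial pair HSPE1 (0.29) and HSPD1 (0.29) rose. HSPA1A, at 138, 135 and 138 CPM and then 144, 143 and 140 CPM, did not pass (0.06, edgeR adjusted p = 0.44) but was called higher with GC content offsets (0.11, adjusted p = 0.029). The small heat shock protein CRYAB rose (0.86, edgeR adjusted p = 0.0042), and HSPA6 (-0.36), DNAJB1 (-0.17) and the regulator HSF1 (-0.23) fell. The HSP70 genes HSPA1A and HSPA1B share near-identical sequence and HSPA6 is related to them, so counts of all 3 are uncertain. From 8 h to 12 h 17 members fell and none rose by edgeR, with 1 higher by DESeq2, by limma-voom and at an unadjusted p under 0.05, and HSPA1A dropped to 39.9, 44.1 and 41.1 CPM. The element GAANNTTC was found in 13 of the 23 members with a promoter, among them 7 of 14 risen and 2 of 2 fallen ones, against 8.21% of all genes.

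In the proteasome list 16 of 28 rose and 1 fell, 60.7% beside 29.8% of all genes, with a median of 0.14. PSMD1, of the regulatory cap, went from 111, 111 and 110 CPM to 138, 138 and 133 CPM (log2 fold change 0.30), and the ring subunits PSMA4 and PSMA5 rose by the same amount. The member that fell was NFE2L1 (-0.28), the factor known to activate proteasome genes. Of 34 nuclear genes of the respiratory chain 15 rose, 44.1% beside 29.8% of all genes, with a median of 0.11. None of them fell by edgeR, DESeq2 or limma-voom or at an unadjusted p under 0.05. NDUFB3 of complex I went from 32.6, 32.0 and 34.7 CPM to 43.5, 46.3 and 38.6 CPM, and cytochrome c (CYCS) from 282, 270 and 278 CPM to 335, 344 and 329 CPM. Both counts changed with single libraries: without DMSO 4 h replicate 2 they came to 8 proteasome and 6 respiratory genes, without DMSO 8 h replicate 1 to 10 and 7. For the respiratory chain they were also 9 without DMSO 4 h replicate 1 and 8 without DMSO 8 h replicate 3. Of 15 transcripts of the mitochondrial genome, MT-ND1 (-0.23) and MT-RNR2 (-0.20) fell (13.3% beside 29.8% of all genes) and 13 did not pass. The lower ones became 5 in the fit of only the 6 libraries compared and 4 with the 9 DMSO libraries, each with 1 higher. With GC content offsets they became 6. Without DMSO 4 h replicate 1 MT-RNR2 was at -0.18 (edgeR adjusted p = 0.053).

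Of 27 p53 targets 12 rose and 6 fell, 66.7% beside 29.8% of all genes, with a median of 0.13. SESN1, a stress-induced inhibitor of mTORC1 signalling, went from 9.62, 10.5 and 9.47 CPM to 18.7, 17.3 and 18.3 CPM and back to 10.3, 10.7 and 9.82 CPM at 12 h. RRM2B, the p53-induced subunit of ribonucleotide reductase, went from 140, 128 and 124 CPM to 192, 206 and 201 CPM and back to 142, 139 and 137 CPM. In both genes the 8 h libraries were above those of either other time. TP63 (0.88), SPATA18 (0.59) and DDB2 (0.52) rose, PMAIP1 (-0.29), SESN2 (-0.47) and PLK3 (-0.55) fell, and CDKN1A (0.13), GADD45A (0.10) and BBC3 (-0.21) did not pass. Of 28 FOXO targets 3 rose, SESN1, SESN3 (0.47) and S1PR1 (0.33), and 4 fell, a share of 25% near the 29.8% of all genes. TXNIP, at 74.4, 72.6 and 70.9 CPM and then 71.1, 78.2 and 75.0 CPM, overlapped and did not pass, although it stood at 27.8 to 32.4 CPM at 12 h.

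Of 16 genes of fatty acid synthesis 9 rose and 3 fell, 75% beside 29.8% of all genes, with a median of 0.18. ACSL3 (0.36), FADS1 (0.36), ELOVL6 (0.36) and ACSS2 (0.34), which activate, desaturate or elongate fatty acids or make acetyl-CoA, rose, while SREBF1, which encodes their known regulator, went from 65.8, 73.2 and 69.3 CPM to 43.1, 41.1 and 41.3 CPM (log2 fold change -0.73). The groups did not overlap for SREBF1. Of 26 genes of cholesterol synthesis and uptake 6 rose and 5 fell, 42.3% beside 29.8% of all genes. ACAT2 (0.30) was higher and INSIG1 (-0.40) and LSS (-0.39) lower. The 6 became 11 or 12 in fits without copanlisib libraries, without copanlisib 4 h replicates 1 and 2, or with GC content offsets, and the 5 became 3 without DMSO 4 h replicate 2, DMSO 4 h replicate 3 or DMSO 8 h replicate 1. The gene for HMG-CoA synthase, HMGCS1 (-0.13, edgeR adjusted p = 0.045), lost its call in 7 of 17 alternatives, among them the fits without any 1 of the DMSO libraries except replicate 2 at 8 h. A sterol element (TCACCCCA, alone or followed by C) was present in 2 of the 20 members with a promoter and in none of the 4 risen and 4 fallen ones among them, against 1.88% of all genes.

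B cell identity as a whole showed no single direction, with 6 of 26 members higher, 5 lower and a median of -0.04. Those past the threshold were 42.3% beside 29.8% of all genes. In the fit of only the 9 DMSO libraries 8 of 25 were higher and 8 lower. The summed level of the 26 members was 4790 to 4890 CPM at 4 h and 4800 to 4900 CPM at 8 h. SPIB, an ETS factor of B cells, was the exception in size, from 62.1, 59.4 and 63.7 CPM to 34.7, 31.9 and 32.1 CPM (log2 fold change -0.90, SE 0.07, edgeR adjusted p = 1.1e-10). IRF8 (-0.36), CD37 (-0.32), CD40 (-0.23) and BLK (-0.23) fell, and EBF1 (0.38), IKZF1 (0.35), PAX5 (0.25) and CD22 (0.25) rose. Of the plasma cell list XBP1 (-0.54) and SLAMF7 (-0.35) fell. In B cell receptor signalling 6 of 25 rose and 7 fell, 52% beside 29.8% of all genes. The inhibitory receptor FCGR2B went from 24.2, 27.2 and 31.5 CPM to 42.7, 43.1 and 42.7 CPM. Of the BCL2 family 4 of 15 fell and 2 rose, 40% beside 29.8% of all genes. The fallen ones were BCL2L1, the gene of BCL-XL, from 200, 203 and 206 CPM to 113, 109 and 108 CPM (log2 fold change -0.88, edgeR adjusted p = 1.1e-13), BCL2 (-0.48), BCL2A1 (-0.35) and PMAIP1 (-0.29). In the HLA list 5 of 24 fell and 2 rose, which is 29.2% beside 29.8% of all genes, and the 5 became 2 without DMSO 4 h replicate 3 and 3 without DMSO 8 h replicate 2 or 3. HLA genes have near-identical copies and alleles, so their counts are uncertain.

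Of 28 snoRNA hosts and other long noncoding RNAs with known functions 10 fell and 2 rose, with a median of -0.15. These made up 42.9% beside 29.8% of all genes. Over the whole class, long noncoding genes that changed were more often higher than lower. Of 2190 long noncoding genes 274 (12.5%) rose and 99 (4.52%) fell, while of 12704 protein-coding genes 1905 (15.0%) rose and 2421 (19.1%) fell. The 2 classes are not matched in expression: the median average log2 CPM was 0.47 for long noncoding and 4.86 for protein-coding genes. Shares called also varied with expression. Host transcripts of microRNAs moved in both directions. MIR155HG went from 278, 274 and 271 CPM to 174, 175 and 181 CPM (log2 fold change -0.64, SE 0.06, edgeR adjusted p = 1.4e-08). MIR3142HG, which also holds the miR-146a hairpin, went from 84.7, 92.2 and 86.0 CPM to 49.1, 47.9 and 51.8 CPM (-0.83), and MIR17HG, the host of the miR-17 to miR-92a cluster, from 22, 25.5 and 23.8 CPM to 13.3, 12.5 and 11.6 CPM (-0.93). All 3 host genes were lower in every 8 h library. Counts of a host transcript are not counts of the mature miRNA, which these libraries do not measure. A selection of the mature products of these 3 fallen hosts, 1 arm of the better known hairpins, is shown from RefSeq with the seed (bases 2 to 8) in capitals, since miR-17-5p and miR-20a-5p share the seed AAAGUGC and the miR-19 pair shares GUGCAAA.
miR-155-5p: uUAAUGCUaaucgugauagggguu
miR-146a-5p: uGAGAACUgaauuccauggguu
miR-17-5p: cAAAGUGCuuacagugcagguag
miR-20a-5p: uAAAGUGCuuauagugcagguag
miR-19a-3p: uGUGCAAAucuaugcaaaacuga
miR-19b-3p: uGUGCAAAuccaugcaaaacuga
miR-92a-3p: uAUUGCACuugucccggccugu
The hosts MIR22HG (-0.66), MIR23AHG (-0.62), MIRLET7IHG (-0.62) and MIRLET7BHG (-0.81) fell too. MIR181A2HG (0.84, edgeR adjusted p = 0.021), the host of miR-181a and miR-181b, and LINC00461 (0.38, edgeR adjusted p = 0.0017), which holds a miR-9 hairpin, rose. MIR210HG, which holds the hypoxia-linked miR-210, rose from 3.11, 3.08 and 3.81 CPM to 9.83, 5.03 and 8.16 CPM (1.22) and was back at 2.79, 2.67 and 3.95 CPM at 12 h. Among the other named noncoding genes LINC00494 went from 31.4, 32.4 and 32.2 CPM to 55.3, 56.4 and 56.4 CPM (0.81), and ZNF584-DT (0.87), LY86-AS1 (0.81) and OLMALINC (0.81) rose, while LINC00641 (-0.67) and BAZ1A-AS1 (-0.66) fell. Counts were taken by strand, which the antisense genes rest on, although the kit named in the labels does not mark strand.

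The length of the gene in the genome went with the direction of change. Among the 255 protein-coding genes with the longest spans (the top 2%, at least 394501 bases), 101 (39.6%) rose and 28 (11%) fell, with a median of 0.22. Among the 6352 genes in the lower 50% of spans, 671 (10.6%) rose and 1335 (21%) fell, with a median of -0.04. Between these ends the share that rose was larger at each step of span. Each of the 3 libraries at 8 h gave a median of 0.19 to 0.20 for the longest genes relative to the 4 h mean, the 4 h libraries lay between -0.04 and 0.02, and those at 12 h between 0.37 and 0.40. EXOC6B (650058 bases), FARS2 (568149), ADGRL3 (877078) and EYA1 (394593) of the leading risen genes belong to that top 2%. GC content moved with the change as well: the top 20% of genes by GC content of the transcript had a median of -0.11 with 27.0% lower, and the lowest 20% had 0.04. After offsets that level each library by GC content, those medians were -0.02 and -0.01, and 39.2% of the longest 2% were higher. Among genes in the top 20% of GC content, the 140 that were also in the top 20% of span had a median of -0.17. Calls also varied with expression: in the top 20% of protein-coding genes by average log2 CPM, 17.4% rose and 28.3% fell. In the lowest 20% these shares were 6.3% and 7.28%. The 29.8% of all genes set beside the lists is therefore not matched to their expression. The part that RNA quality or library preparation has in these length and GC patterns was not tested.

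**Figure D4:**
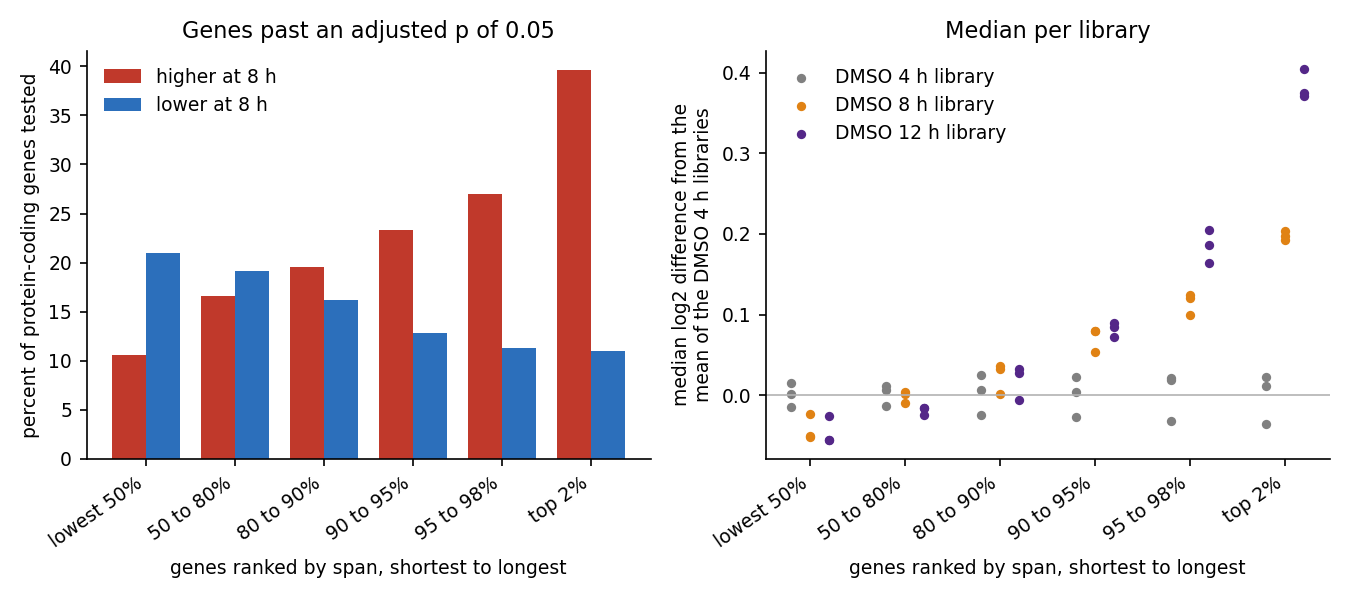
Left, the percent of protein-coding genes that were higher (red) or lower (blue) at 8 h past an adjusted p of 0.05, by rank of gene span; right, the median log2 CPM difference of each DMSO library from the mean of the 4 h libraries in the same ranks. In the top 2% of spans 39.6% were higher, and the 8 h libraries lie at 0.19 to 0.20 and the 12 h libraries at 0.37 to 0.40.

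Cells given copanlisib were followed over the same 4 h, in libraries separate from the vehicle ones, although all 18 share 1 estimate of the spread in the fit. There 6574 genes (40.8%) changed from 4 h to 8 h, 19.5% higher and 21.3% lower. The libraries labelled 1 and 2 among the copanlisib replicates of 4 h were unlike the rest. They had 12.35% and 12.56% mitochondrial reads against 10.1% in replicate 3, and 8.73% and 5.22% unmapped reads against 2.34%. Leaving them out keeps replicate 3 as the only copanlisib library at 4 h, so numbers of calls cannot be compared directly with the full fit. The differences of single genes and some counts below are also given without them. Without them 3602 of 17007 genes (21.2%) changed. Of the 2236 genes that rose in DMSO, 1018 (45.5%) also rose in copanlisib and 76 (3.40%) fell, and the 1018 were 32.4% of the genes that rose in copanlisib. Of the 2574 that fell in DMSO, 1390 (54.0%) fell and 95 (3.69%) rose in copanlisib, and the 1390 were 40.5% of the genes that fell there. Genes that rose in DMSO had a median log2 fold change of 0.18 in copanlisib and those that fell -0.21, beside 0.02 over all genes. Without the 2 libraries these medians for the genes that rose and fell in DMSO were 0.20 and -0.22.

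A direct test of the difference between the 2 time courses called 3086 genes (19.1%), and 409 of 17007 (2.40%) without copanlisib 4 h replicates 1 and 2. CHAC1 had the lowest difference by the naming rule. In copanlisib it stood at 4.70, 5.27 and 6.11 CPM at 4 h and at 4.26, 4.30 and 4.39 CPM at 8 h, so that it was already low at 4 h. The 2 time courses differed by -1.34 on the log2 scale (SE 0.16, edgeR adjusted p = 1.4e-05), and -1.13 without the 2 libraries (adjusted p = 0.00015). ANK2, which encodes an adaptor between membrane and spectrin skeleton, rose in DMSO from 17.6, 18.8 and 19.7 CPM to 23.6, 24.5 and 27.2 CPM and fell in copanlisib from 19, 17.8 and 16.9 CPM to 11, 10.1 and 9.92 CPM. That difference was 1.21 (SE 0.13, edgeR adjusted p = 7.2e-06), and 1.13 without the 2 libraries (adjusted p = 2.1e-06). For NDRG1, MYC and BCL2, picked here after their values were seen, no difference passed the test. It was 0.02 (SE 0.07), 0.00 (SE 0.06) and 0.04 (SE 0.07), with log2 fold changes in copanlisib of -1.02, -0.33 and -0.53, and 0.06, 0.04 and -0.09 without the 2 libraries. NR4A1 differed by -1.0 (SE 0.12, edgeR adjusted p = 1.4e-05) and NFKBIA by -0.55 (adjusted p = 1.3e-05), both with the larger fall in DMSO, and by -0.71 and -0.47 without the 2 libraries (adjusted p = 2.9e-05 and 4.6e-06). Of the lists, 16 of the 27 NF-kB genes and 13 of the 32 immediate early genes differed, beside 19.1% of all genes. Larger shares differed among 26 B cell identity genes (17), 15 mitochondrial genome transcripts (11) and 20 aminoacyl-tRNA synthetases (13). So with all libraries a difference was not limited to NF-kB and immediate early genes. These list counts include copanlisib 4 h replicates 1 and 2, which were unlike the rest and had more mitochondrial reads than replicate 3. Without them those lists no longer had larger shares than the NF-kB and immediate early lists. Copanlisib at 4 h then rests on replicate 3 alone, so the order of the lists is not settled.

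The remaining lists moved in both directions or had few members past the threshold. Of 24 genes of the unfolded protein response 3 rose and 5 fell, which is 33.3% beside 29.8% of all genes, with HERPUD1 (-0.49) and DNAJB9 (-0.60) lower and PDIA4 (0.26) higher. Of 23 NRF2 and oxidative stress genes 7 rose, led by ME1 (0.50), and 7 fell, among them SQSTM1 (-0.56) and NFE2L2 itself (-0.48). Those past the threshold made up 60.9% beside 29.8% of all genes. Of 31 PI3K, AKT and mTOR components 6 rose and 4 fell, a share of 32.3% near that of all genes. Of 34 lysosome and autophagy genes 3 rose and 10 fell (38.2%), and of 31 translation factors 1 and 4 (16.1%). Among 25 genes of polyamine and nucleotide synthesis 7 rose and 4 fell (44%), and of 21 migration receptors 6 and 4 (47.6%). The TGF-beta list had 3 higher and 6 lower of 18 (50%), and the glucocorticoid response 1 and 3 of 11 (36.4%). Cholesterol efflux had none higher and 2 lower of 12 (16.7%), and plasma cell genes 4 and 4 of 16 (50%). These shares stand beside 29.8% of all genes, and the medians of these lists lay between -0.13 and 0.06. No member passed among 7 replication-dependent histones by edgeR, DESeq2 or limma-voom or at an unadjusted p under 0.05. None of 6 metallothionein and zinc response genes passed by these tools, with 1 higher and 1 lower at an unadjusted p under 0.05. In edgeR fits 1 was called higher with only the 6 or 9 DMSO libraries, without copanlisib 4 h replicates 1 and 2 or without DMSO 8 h replicate 1, and 1 lower with GC content offsets or without DMSO 4 h replicate 1. Several of these small counts changed with 1 library. The 5 lower of the unfolded protein response became 3 without DMSO 4 h replicate 1, DMSO 8 h replicate 1 or DMSO 8 h replicate 3. The 4 lower of polyamine synthesis became 2 without DMSO 4 h replicate 1, and the 4 higher plasma cell genes 2 without DMSO 4 h replicate 3. Other fits called more. The 4 lower translation factors became 7 with only the 9 DMSO libraries and 11 with GC content offsets. The 4 lower PI3K, AKT and mTOR components became 7 in both. The 5 lower of the unfolded protein response became 8 with only the 6 or 9 DMSO libraries.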

How the data were processed

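Total RNA of HAIR-M cells was sequenced in 18 libraries, 3 for each of 6 groups. The authors deposited 1 table of raw read counts per gene and library; CASAVA 1.7, STAR 2.5.2b and build hg38 are named in the submitters' processing notes, and for the annotation no version is stated. Each table holds 60483 identifiers, of which 41124 were named from a gene name table and 15629 from GENCODE 29. Reads that map to several places are not counted, so genes with close copies are undercounted. Per the labels' protocols the kit was one without strand marking, yet 1 strand column held over 80% of stranded reads in each library, so that column was used.

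Counts of all 18 libraries entered 1 edgeR 4.0.16 quasi-likelihood fit in R 4.3.3 (filterByExpr, TMM scaling, a mean per group), and p-values were adjusted by Benjamini-Hochberg over 16122 genes, which hold at least 99.87% of gene reads. A gene changed when its adjusted p was under 0.05. CPM use TMM-scaled library sizes, those of markers plain ones, and are not per length. The 6 libraries held 13587017 to 21583576 gene reads, and the common biological coefficient of variation was 0.05. The script was tested on simulated data.

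Named genes were the 12 highest and 12 lowest protein-coding genes (average log2 CPM of at least 3, groups apart), 4 and 4 noncoding genes, up to 4 per list, 4 and 4 for the difference from copanlisib, and a fixed set, 181 in all. Other list members named in the text were chosen after their values were seen. The 38 lists and their member genes were chosen with earlier results of these data known. Alternatives were DESeq2 1.42.0 size factors and test, limma 3.58.1 voom, no filter, unstranded counts, a replicate block, fewer libraries, other thresholds and GC content offsets, the last added after seeing the data.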

Additional observations from a re-analysis of the deposited data

Results flagged for a closer look

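The change from 4 h to 8 h was tested against the same change in copanlisib, and 3086 genes differed at an edgeR adjusted p under 0.05, but 409 without copanlisib 4 h replicates 1 and 2. The 8 genes named by rule for that difference are given as the log2 change in DMSO minus that in copanlisib. Without those replicates copanlisib at 4 h rests on replicate 3 alone, so a call lost there does not show that the difference is absent.

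ANK2 differed by 1.21 and by 1.13 without these 2 libraries. CHAC1 differed by -1.34 and by -1.13 without them. LLGL2, a cell polarity gene, differed by -1.18 and by -0.88 without them (edgeR adjusted p = 0.0019). In copanlisib LLGL2 stood at 4.32, 6.11 and 7.07 CPM at 4 h and at 10.5, 9.40 and 8.97 CPM at 8 h. For these 3 genes the difference passed the test in both fits.

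The other 5 did not pass without the 2 libraries. EYA1 differed by 0.80 (0.47 without, edgeR adjusted p = 0.25). IFIT1 differed by 0.87 (0.58 without, adjusted p = 0.10 by edgeR). TNFSF10, the death receptor ligand TRAIL, differed by 0.78 (0.45 without, edgeR adjusted p = 0.26). HES7, a helix-loop-helix repressor, differed by -1.03 (-0.51 without, edgeR adjusted p = 0.073). TPGS1, a subunit of the tubulin polyglutamylase, differed by -1.02 (-0.37 without, edgeR adjusted p = 0.25). TPGS1 stood at 4.36, 5.67 and 10.6 CPM in copanlisib at 4 h and at 10.3, 10.5 and 10.7 CPM at 8 h, so replicate 3 at 4 h lay with the 8 h libraries.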

How the results depend on the processing

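No named gene that passed changed sign under any alternative run. In 11 pairs of gene and alternative a gene that passed in neither fit did, such as ACTB (-0.01, and 0.01 with GC content offsets) and TXNIP (0.04, and -0.02 with GC content offsets). Of 181 named genes 167 passed, and 155 of these stayed past the threshold with the same sign in all 17 alternatives. Of 3074 pairs of gene and alternative 40 lost and 17 gained a call, and CD38, EIF2B3, FOXO3, HLA-DOB, HSD17B7, LTBP1, NDUFA9 and OSGIN1 were among the genes that lost it without single libraries.

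The 4810 genes became 3100 at an adjusted p under 0.01 (1358 higher). At a log2 fold change of at least 1 they became 265 (131 higher, 134 lower). Without 1 library they were 3819 to 4102 (1678 to 1878 higher, 2042 to 2259 lower). Counts were larger in fits of only the 6 libraries compared (5781 of 14884) and of the 9 DMSO libraries (5887 of 15273). With GC content offsets they came to 5761 of 16004. With no filter on low counts the larger of the 2 directions changed in 3 comparisons, to 2221 higher and 2141 lower in DMSO, 3326 and 2849 in copanlisib, and 1331 and 1640 for the difference. For copanlisib the 6574 genes became 3602 without copanlisib 4 h replicates 1 and 2 (1486 higher, 2116 lower), 2055 higher at an adjusted p under 0.01, 259 at a log2 fold change of at least 1 (172 higher, 87 lower), and 5175 to 8184 without 1 library (2304 to 3968 higher, 2871 to 4216 lower). For the difference the 3086 became 409 without the same 2 libraries (228 higher, 181 lower), 1316 with GC content offsets (714 higher, 602 lower), 1062 at an adjusted p under 0.01 (545 higher, 517 lower) and 106 at a log2 fold change of at least 1 (25 higher, 81 lower). Without 1 library it gave 1650 to 6353 (861 to 3286 higher, 680 to 3067 lower): 1742 without DMSO 4 h replicate 3, 1965 without DMSO 8 h replicate 2, and 1772, 1650 and 6353 without copanlisib 4 h replicates 1, 2 and 3. Without copanlisib 4 h replicates 1 and 2 that group rests on replicate 3 alone, so those counts cannot be compared directly with the others. The cause of the changes in count was not tested. The 4151 genes of DMSO 12 h against 8 h became 2646 at an adjusted p under 0.01 (1198 lower), 229 at a log2 fold change of at least 1 (90 higher, 139 lower) and 3170 to 3446 without 1 library of 8 h or 12 h (1718 to 1924 higher, 1440 to 1583 lower).

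With the replicate number as a block, 4779 genes changed. Deviations of same-numbered libraries at 4 h and 8 h correlated at 0.0182, 0.0269 and -0.00223, and replicate 3 at 8 h correlated best with replicate 2 at 4 h (0.00535), so the numbers were not taken as pairs. Genes of few reads and folds near 1 are where depth limits these calls.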
